A study of Homo sapiens with 8 samples.

Results

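The genes of ribosome biogenesis and of RNA polymerase I described here were taken from a list of 36 gene symbols. A gene was kept where a feature of the array was annotated to it alone and had a value in all 8 samples. This gave 33 genes with 52 features, of 13469 genes and 25094 features measured, and GNL3, POLR1C and EBNA1BP2 were not analysed here. The cells were HEK293, an established line from human fetal kidney that carries adenovirus DNA. They had been stably transfected, with FuGENE 6, with the linear vector pBudCE4.1 holding an intronic transcript of KLHL29. The insert lay in the sense orientation in 4 samples and in the antisense orientation in the other 4, and zeocin-selected cells were kept as mixed populations. All samples of a construct were thawed from frozen populations of 1 transfection, so construct and transfected pool cannot be told apart, and p-values measure the spread between thawed populations. No cells without an insert were analysed here, and every difference below is sense minus antisense on the log2 intensity scale. Samples 1 and 3 of each construct carried the dye Cy3 and samples 2 and 4 carried Cy5.

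Ribosomes are made in the nucleolus. RNA polymerase I transcribes the precursor of the large ribosomal RNAs, small nucleolar ribonucleoproteins (snoRNPs) guide its methylation and pseudouridylation, and assembly factors fold and cut it into the small and large subunit. Transcription of many of these genes is known to follow growth, with MYC as a well-studied activator, and proliferating cell lines express them at high levels.

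All 52 features lay above the inferred detection limit in all 8 samples. Of the genes fixed as a check of the cell line, NEFL, NEFM, VIM, KRT8 and KRT18 were above the limit in both constructs and PAX2 was not. Of those of other cell types, PTPRC, PECAM1, VWF and COL1A2 were below it, and CD3E and COL1A1 were above it. Sense 4 stood apart from the other sense samples over the whole array. Of 11627 genes detected in both constructs, 28.5% had their lowest and 22.8% their highest value of the 8 samples in sense 4. The deposited medians of samples 1 and 2, and of samples 3 and 4, of each construct were equal or nearly so (log2 of 29.11 for both and 29.14 for both in sense, and 29.09 for both and 29.03 for both in antisense). The labels used here do not say whether such samples shared an array. In these bulk samples, fewer cells expressing a gene and less RNA per cell cannot be told apart.

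Most of the ribosome biogenesis genes gave lower values in the sense samples, by small amounts, and 0 of the 33 passed the test. By its brightest feature, 26 genes had a negative and 7 a positive difference, with a median of -0.20 and a range of -0.46 to 0.19. Over all 11627 detected genes the median was -0.02 and 52.5% were negative. Most members were brighter than the median of all features, and the comparison was not matched for intensity. The lowest adjusted p of a member was 0.28 (limma, Benjamini-Hochberg over all features), and 0 of 52 features were called, against 0.0677% of all features (0.0359% lower and 0.0319% higher in sense). At an unadjusted p under 0.05, 8 of the 33 genes were lower in sense and 0 higher, against 7.50% and 6.65% of all features. No member differed by as much as 1.4-fold by its brightest feature. The size of the median moved with the scaling and with single samples. After median centring it was -0.26 with 28 of 33 negative, a setting for which the share of all genes was not computed. After quantile normalization it was -0.075 with 22 negative, against 52.8% of all detected genes. The median over all features moved as well, from -0.040 to -0.10 after median centring and to -0.010 after quantile normalization. Without sense 4 the members' median was -0.12 with 24 negative, against 50.5% of all detected genes. Without sense 4 and antisense 2 it was -0.076 with 22 negative, against 50.0%. Those are the samples whose omission gave the lowest mean coefficient of variation, the criterion by which the study's design text left out 1 sample per construct. With these 3 against 3 samples, 2 member features were called, against 4.25% of all features. The significance analysis of microarrays (SAM) that the design text states called 0 member features at either of its false discovery rates, against 1.80% at the stricter and 6.52% at the wider rate (1.87% lower and 4.65% higher in sense).

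**Figure D1:**
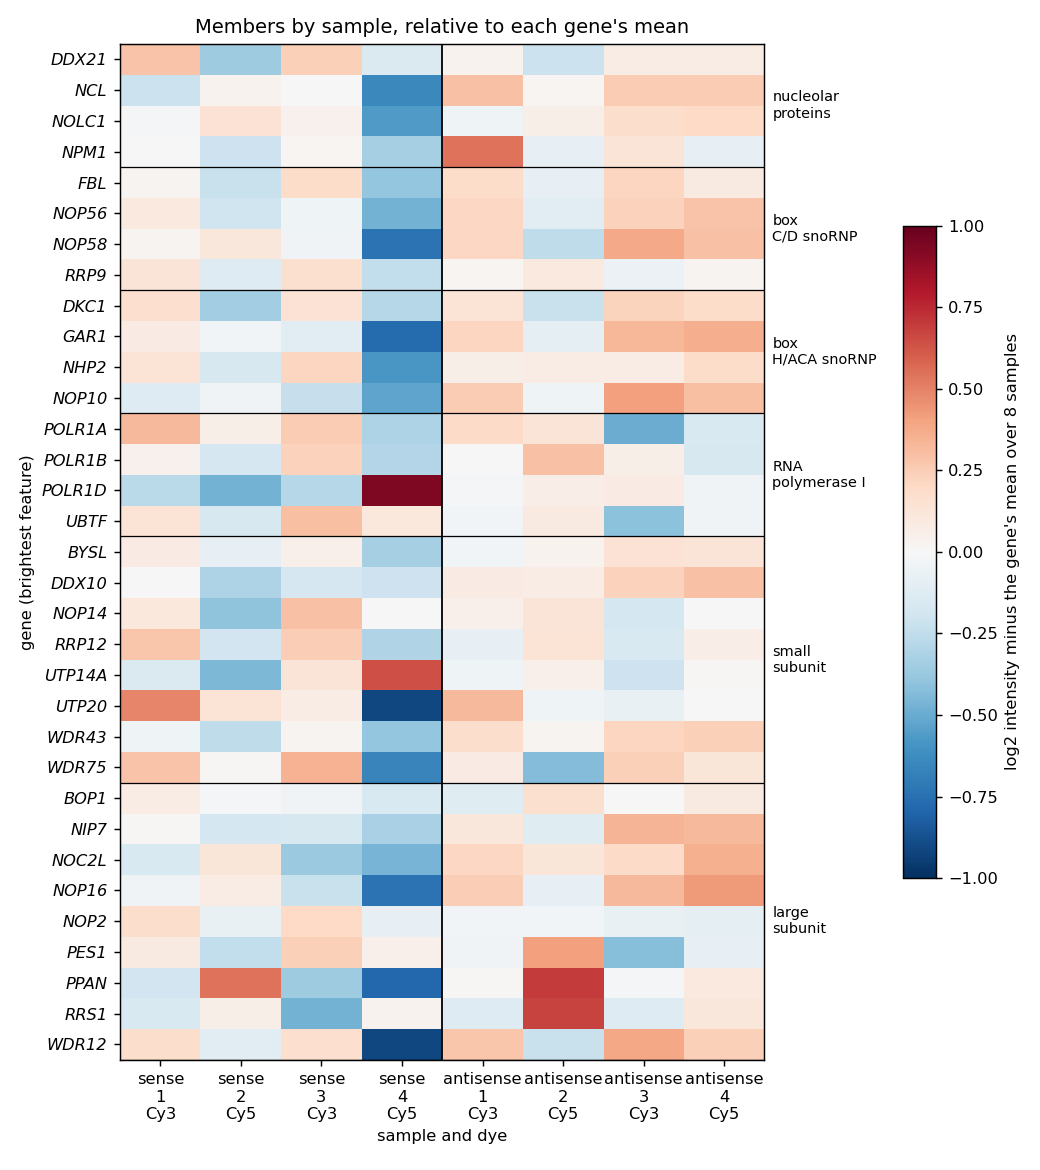
Log2 intensity of each of the 33 genes (rows, brightest feature, grouped by role) in each sample (columns, with its dye), minus the gene's mean over the 8 samples. The sense 4 column is the lowest for 22 of the 33 genes, while POLR1D and UTP14A are highest there.

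All 4 box H/ACA core proteins had negative differences, with a median of -0.30. NOP10, the smallest core protein of this particle and of telomerase, read 34.13, 34.22, 34.03 and 33.73 in the sense samples (here and below in the order 1 to 4) against 34.51, 34.21, 34.67 and 34.55 in antisense. Antisense 2 lay beside the upper sense samples and the other 3 antisense samples lay above all 4 sense samples. NOP10 was 1.38-fold higher in antisense (difference -0.46, SE 0.15, unadjusted p = 0.0097, adjusted p = 0.28 from limma), the smallest p among the members. GAR1, which aids release of modified RNA, read 34.47, 34.36, 34.28 and 33.62 in sense and 34.60, 34.30, 34.73 and 34.76 in antisense. Its constructs overlapped through antisense 2, and the difference of -0.41 (SE 0.18, adjusted p = 0.34) became -0.24 without sense 4. DKC1, the pseudouridine synthase itself, read 34.19, 33.67, 34.17 and 33.74 in sense and 34.16, 33.80, 34.25 and 34.20 in antisense. The Cy3 samples of the constructs lay side by side, and the difference was -0.16 (SE 0.13, adjusted p = 0.54). NHP2 differed by -0.20 (SE 0.16).

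The 4 genes grouped under box C/D snoRNPs (FBL, NOP56, NOP58 and RRP9) also had negative differences, with a median of -0.25. After quantile normalization 3 of the 4 stayed negative, and RRP9 was at 0.02. NOP58, which with NOP56 forms the scaffold of box C/D particles, read 34.61, 34.69, 34.54 and 33.84 in sense and 34.79, 34.32, 34.96 and 34.87 in antisense. Sense 4 was the lowest sample and antisense 2 the next, so the constructs overlapped (difference -0.32, SE 0.19, adjusted p = 0.43, and -0.14 without sense 4). All 3 features of NOP56 were negative, from -0.31 to -0.15. Both features of FBL, the methyltransferase fibrillarin, were near -0.20. RRP9, a protein of the snoRNP that directs early precursor cleavage, read 31.89, 31.63, 31.92 and 31.52 in sense and 31.78, 31.86, 31.70 and 31.78 in antisense. Here the Cy3 sense samples were the highest and the Cy5 sense samples the lowest of the 8, and the difference was -0.04 (SE 0.12, adjusted p = 0.88).

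Among abundant nucleolar proteins, nucleolin had the largest difference. NCL, an RNA-binding protein that acts in transcription and early processing of ribosomal RNA, read 36.18, 36.43, 36.40 and 35.75 in sense and 36.69, 36.42, 36.65 and 36.65 in antisense. Sense 4 was the lowest, and antisense 2 fell between sense 2 and sense 3 (difference -0.41, SE 0.17, adjusted p = 0.33). The other NCL feature differed by -0.30 (SE 0.13). NPM1, the chaperone nucleophosmin, had 6 features, 5 of them negative, which ran from -0.27 to 0.21 with adjusted p of 0.39 or more. NOLC1, a phosphoprotein that binds snoRNPs, had differences of -0.20, -0.12 and 0.13 on its 3 features. DDX21, an RNA helicase of the nucleolus, read 33.99, 33.36, 33.95 and 33.56 in sense and 33.75, 33.49, 33.78 and 33.78 in antisense. The Cy3 sense samples were above all antisense samples and sense 2 was below them, and the difference was 0.01 (SE 0.13, adjusted p = 0.97).

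The 4 RNA polymerase I genes had 2 negative and 2 positive differences, with a median of 0.06. UBTF, which binds the ribosomal DNA promoter, read 29.53, 29.23, 29.69 and 29.50 in sense and 29.36, 29.48, 28.98 and 29.35 in antisense. The ranges overlapped, with a difference of 0.19 (SE 0.17, adjusted p = 0.57). POLR1A and POLR1B, the catalytic subunits, differed by 0.17 (SE 0.22) and -0.10 (SE 0.15). POLR1D, a subunit shared with RNA polymerase III, read 32.25, 32.04, 32.23 and 33.45 in sense and 32.50, 32.58, 32.60 and 32.48 in antisense on its brightest feature. Sense 4 was far above the rest and the other sense samples were below all antisense samples, so that the difference of -0.05 (SE 0.25, adjusted p = 0.94) became -0.38 without sense 4. The other POLR1D feature, annotated to another transcript record, went the other way, with a difference of 0.98 (SE 0.29, unadjusted p = 0.0063, adjusted p = 0.27).

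Of 8 small subunit factors, 6 had negative differences, with a median of -0.06. DDX10, an RNA helicase of the small subunit processome, read 32.98, 32.67, 32.81 and 32.78 in sense and 33.06, 33.05, 33.21 and 33.28 in antisense. Every sense sample lay below every antisense sample, in 1 of the 33 genes against 3.04% of all features (difference -0.34, SE 0.12, adjusted p = 0.30). The opposite separation occurred in 0 of the 33 and in 3.35% of all features. The other DDX10 feature differed by 0.26 (SE 0.24), with overlapping samples. Its mean over the 8 samples was 26.35, against 32.98 for the brightest feature, and it lay near the inferred detection limit. WDR43, a processome protein, read 30.79, 30.58, 30.86 and 30.45 in sense and 31.02, 30.86, 31.05 and 31.07 in antisense. Only sense 3 and antisense 2 met, at 30.86, and the difference was -0.33 (SE 0.12, adjusted p = 0.31). WDR75, of the same assembly, read 31.18, 30.91, 31.25 and 30.24 in sense and 30.98, 30.46, 31.14 and 31.02 in antisense. Sense 4 was the lowest and sense 3 the highest of all 8, and the means differed by -0.0041 (SE 0.18, adjusted p = 0.99). The remaining 5 genes, BYSL, NOP14, RRP12, UTP14A and UTP20, had differences between -0.14 and 0.09 with adjusted p of 0.56 or more.

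Large subunit factors had the most negative median of the role groups, -0.33, with 7 of 9 genes below 0. That rank rested on sense 4, without which their median was -0.15, against -0.19 for the box H/ACA genes. NOC2L, whose yeast counterpart escorts large subunit precursors, read 32.95, 33.22, 32.73 and 32.64 in sense and 33.30, 33.22, 33.29 and 33.46 in antisense. Sense 2 and antisense 2 were level and the other sense samples were lower (difference -0.44, SE 0.15, adjusted p = 0.285). Its 2 other features differed by -0.04 and 0.74. NOP16, a nucleolar protein of large subunit assembly, read 34.44, 34.55, 34.25 and 33.74 in sense and 34.73, 34.40, 34.80 and 34.91 in antisense. Antisense 2 was below sense 1 and sense 2, and the difference of -0.46 (SE 0.19, adjusted p = 0.33) became -0.29 without sense 4. NIP7, a factor of late large subunit maturation, read 32.11, 31.93, 31.94 and 31.78 in sense and 32.22, 31.98, 32.44 and 32.43 in antisense. Antisense 2 was below sense 1 and above the other sense samples (difference -0.33, SE 0.13, adjusted p = 0.33).

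PES1, BOP1 and WDR12 form 1 complex in large subunit maturation. The 95% intervals of their differences overlapped, and whether the 3 genes differed from each other was not tested. BOP1 read 32.71, 32.63, 32.61 and 32.49 in sense and 32.52, 32.80, 32.64 and 32.73 in antisense, with fully mixed samples and a difference of -0.06 (SE 0.12, 95% interval -0.32 to 0.19). PES1 differed by 0.07 (SE 0.18) and WDR12 by -0.34 (SE 0.18, adjusted p = 0.39, and -0.15 without sense 4). PPAN, RRS1 and NOP2, the last an RNA methyltransferase, differed by -0.40 (SE 0.255), -0.26 (SE 0.145) and 0.11 (SE 0.11).

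**Figure D2:**
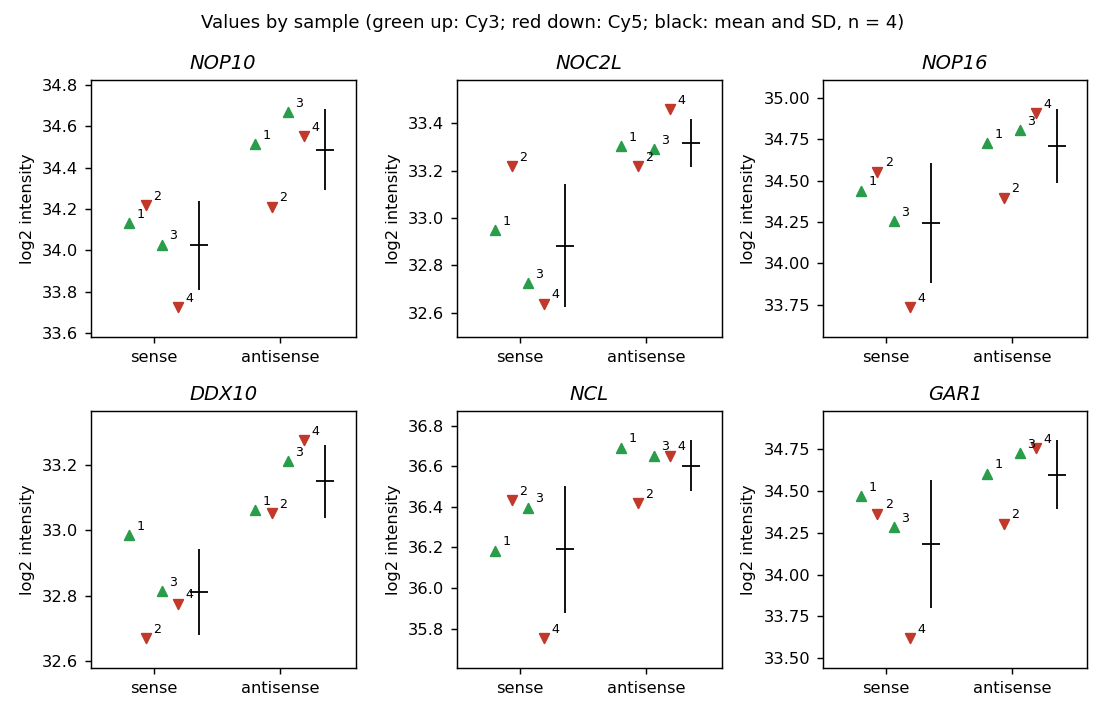
Log2 intensity by sample for the 6 genes NOP10, NOC2L, NOP16, DDX10, NCL and GAR1, with the sample number beside each point, triangles up for Cy3 and down for Cy5, and the mean and SD (n = 4) in black. Sense 4 is the lowest sample in all panels but that of DDX10, and antisense 2 is the lowest antisense sample in each.

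**Figure D3:**
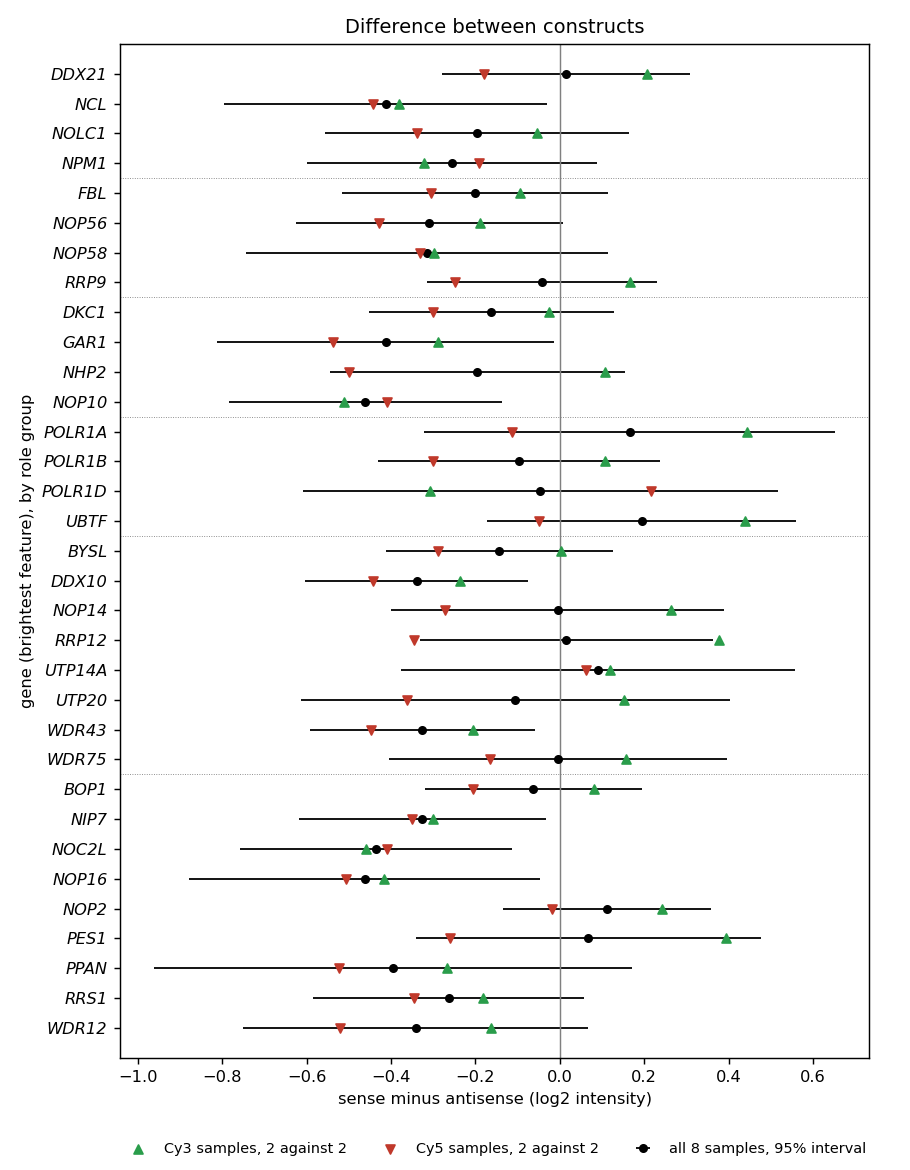
Sense minus antisense difference (log2 intensity) of each gene over all 8 samples with its 95% interval (black), and within the Cy3 (green) and Cy5 (red) samples. The Cy5 difference lies below 0 for 31 of 33 genes and the Cy3 difference for 18.

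The difference between constructs was larger in the Cy5 than in the Cy3 samples. The sense sample that stood apart over the whole array carried Cy5, so its share in this contrast cannot be told apart from dye. Within Cy5 the median was -0.33 and 31 of 33 genes were negative, against 52.2% of all detected genes, and 0 member features were called, against 0.0159% of all. Within Cy3 the median was -0.055 and 18 of 33 were negative, against 51.9% of all detected genes, and 10 member features were called (6 lower), against 11.5% of all. Per gene, the Cy5 difference was below the Cy3 difference in 29 of 33, against 50.5% of all detected genes. The test of that difference, a construct by dye term in limma, called 0 member features after adjustment and 0.00% of all features. At an unadjusted p under 0.05 it held 2 of the 33 genes, RRP12 and NHP2, against 4.67% of all features, so the dye dependence of single genes was not resolved. RRP12, which acts in export of both subunits, differed by 0.38 within Cy3 and -0.35 within Cy5 (unadjusted p = 0.0083 for the term). In the Cy3 samples alone RRP12 was called higher in sense (limma adjusted p = 0.046), where 11.5% of all features were called. NHP2 differed by 0.11 and -0.50 (unadjusted p = 0.043).

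By sample, the lowest values lay mainly in sense 4, which carried Cy5. The median deviation of the 33 genes from their own means was -0.33 in sense 4 and -0.13 in sense 2, the other Cy5 sense sample. It was 0.07 and 0.05 in sense 1 and 3, and 0.08, 0.04, 0.13 and 0.11 in antisense 1 to 4. Of the 33 genes, 22 (66.7%) had their lowest value in sense 4, against 28.5% of all detected genes, and 28 were lower there than in the mean of the other sense samples, against 52.8%. MYC, an activator of these genes, was highest in sense 4, as were 22.8% of all detected genes. It read 32.81, 32.21, 32.64 and 33.22 in sense and 32.34, 33.00, 32.25 and 32.52 in antisense (difference 0.19, SE 0.22, adjusted p = 0.67). Whether culture, RNA or labelling of sense 4 moved these values, or whether MYC was linked to them, was not tested.

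**Figure D4:**
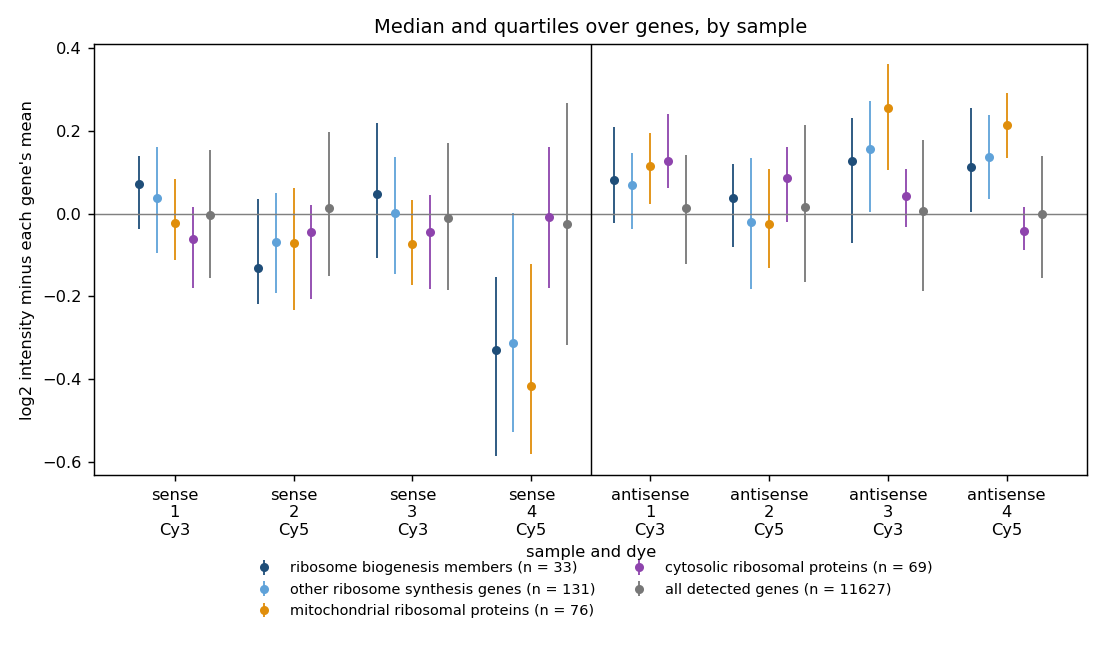
Median (point) and quartiles (line) over genes of the log2 intensity minus each gene's mean, by sample, for the 33 genes, 131 other ribosome synthesis genes, 76 mitochondrial and 69 cytosolic ribosomal protein genes and 11627 detected genes. In sense 4 the 33 genes lie at -0.33 and the mitochondrial ribosomal protein genes at -0.42, while the cytosolic ribosomal protein genes lie at -0.01.

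**Figure D5:**
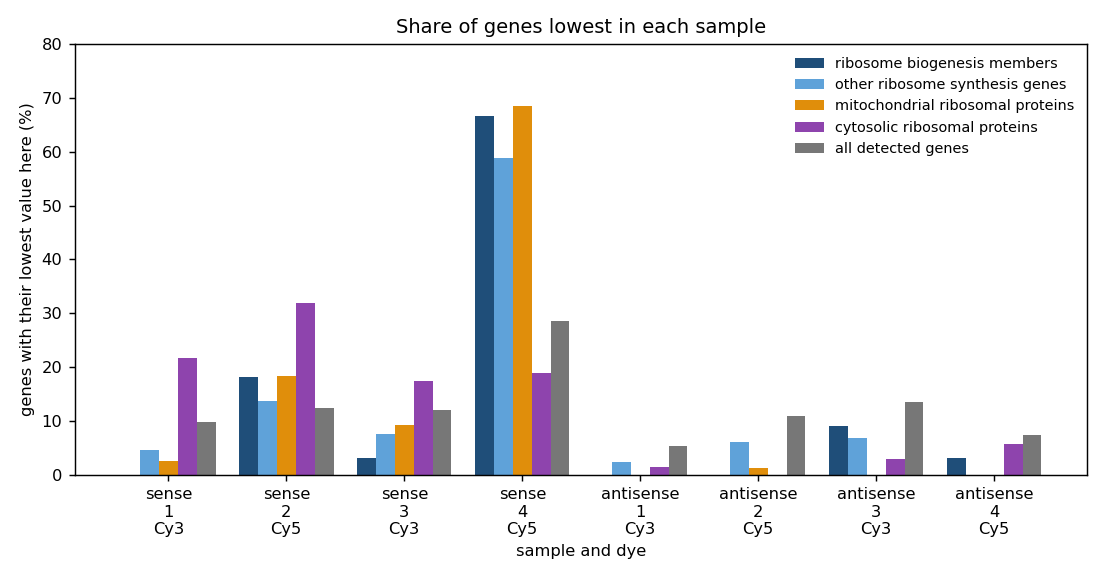
Share of genes (%) whose lowest value of the 8 samples fell in each sample, for the same 5 lists. Sense 4 holds 66.7% of the 33 genes, 58.8% of the other ribosome synthesis genes, 68.4% of the mitochondrial and 18.8% of the cytosolic ribosomal protein genes, and 28.5% of all detected genes.

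Other genes of ribosome synthesis were also mostly lower in value in sense. Of 131 further factors measured, 108 were negative, against 52.5% of all detected genes, with a median of -0.16, and 0 passed the test. Without sense 4, 93 were negative, against 50.5% of all detected genes. RCL1 and WDR3, of the small subunit processome, differed by -0.50 (SE 0.12) and -0.48 (SE 0.13), and in both every sense sample lay below every antisense sample. Of the 131, 10 had this separation and 0 the opposite, against 3.04% and 3.35% of all features. EMG1, a methyltransferase of small subunit RNA, differed by -0.66 (SE 0.22). Of the RNA exosome, which trims ribosomal RNA ends, 10 of 13 genes were negative, among them EXOSC7 at -0.40 (SE 0.11), EXOSC8 at -0.42 (SE 0.14) and EXOSC2 at -0.43 (SE 0.16). In large subunit assembly DDX27 differed by -0.59 (SE 0.18), LAS1L by -0.41 (SE 0.14) and BRIX1 by -0.37 (SE 0.13). The nucleolar proteins NPM3, NOL10 and NOL12 differed by -0.34, -0.61 and -0.23. Of 17 further polymerase I genes 14 were negative, with a median of -0.14. Among them POLR1G and MYBBP1A differed by -0.30 and -0.31, and TTF1, a termination factor, by 0.27 (SE 0.15). In snoRNP assembly, TGS1 differed by 0.37 (SE 0.14), ZNHIT3 by -0.32 (SE 0.14) and COIL by -0.32 (SE 0.17).

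Regulators of ribosome synthesis were mixed, 7 of 16 negative. EIF4E, the cap-binding translation factor, read 32.02, 32.14, 32.06 and 32.08 in sense and 32.64, 32.40, 32.69 and 32.72 in antisense. All sense samples lay below all antisense samples, sense 4 among the others, and EIF4E was 1.45-fold higher in antisense (difference -0.54, SE 0.12, unadjusted p = 0.00091, adjusted p = 0.21). Of the 16 regulators, 1 had this separation and 1 the opposite, against 3.04% and 3.35% of all features. CSNK2B, a casein kinase subunit, differed by 0.42 (SE 0.14), MYCN by 0.42 (SE 0.20) and MDM2 by 0.16 (SE 0.17), and 0 regulators passed. The SAM analysis at its wider false discovery rate called 8 of the 147 further genes, against 6.52% of all features, so that the count was no larger than the background. DDX27, NOL10, EIF4E and COIL were lower in sense (1.87% of all features) and CSNK2B, MYCN, MAPK3 and TBL3 higher (4.65%).

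Ribosomal protein genes were set beside these factors as a reference. Of 76 mitochondrial ribosomal protein genes 70 were negative, with a median of -0.29, and 28 of them were lower at an unadjusted p under 0.05, against 7.50% of all features. After quantile normalization their median was -0.19 with 66 negative. The cytosolic set had a median of -0.12 with 60 of 69 negative, 0.02 with 26 negative after quantile normalization, and 0 of its genes were lower at an unadjusted p under 0.05. These are counts and medians, and the difference between the lists was not tested.

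The promoters were searched for CACGTG, the E-box that MYC and its partner MAX bind, because these genes are a textbook set of MYC-regulated genes. The motif reads the same on both strands and was the only motif searched. RefSeq promoters (GRCh38.p14, 250 bases before to 50 after the start) were matched for 28 of the 33 genes. No match was made for BOP1, NOLC1, NOP58, RRP12 and RRS1. The motif was present in 12 of the 28 (42.9%), against 8.77% of 27305 genes with a promoter in the table and 12.9% of 9504 genes detected here. It was present in 27.2% of 114 other ribosome synthesis genes, 13.2% of 68 mitochondrial and 6.78% of 59 cytosolic ribosomal protein genes. The windows below show each match in capitals with up to 12 bases on either side, and the position is that of its first base, counted from the start at 1.
BYSL, chr6:41921515-41921544, plus strand, motif at 29: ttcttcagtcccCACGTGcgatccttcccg
DDX21, chr10:68956604-68956633, plus strand, motif at -31: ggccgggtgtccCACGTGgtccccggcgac
FBL, chr19:39846356-39846385, minus strand, motif at 7: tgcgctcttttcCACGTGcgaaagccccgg
GAR1, chr4:109815781-109815810, plus strand, motif at 32: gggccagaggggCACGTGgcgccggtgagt
NOP10, chr15:34343289-34343318, minus strand, motif at -170: gtagggacactcCACGTGttttagcctgca
NOP10, chr15:34343130-34343159, minus strand, motif at -11: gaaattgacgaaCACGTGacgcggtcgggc
NOP14, chr4:2963374-2963403, minus strand, motif at 16: tccgcggcccggCACGTGtcttagggtagc
NOP2, chr12:6568242-6568268, minus strand, motif at 36: aggtccggattgCACGTGgagggccgc
PES1, chr22:30591880-30591909, minus strand, motif at 14: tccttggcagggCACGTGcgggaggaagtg
RRP9, chr3:51941892-51941921, minus strand, motif at -5: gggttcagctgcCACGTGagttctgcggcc
UTP14A, chrX:129905914-129905940, plus strand, motif at -241: accttgggcCACGTGgaaaccaggggc
UTP20, chr12:101280083-101280112, plus strand, motif at -10: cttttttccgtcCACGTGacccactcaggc
WDR43, chr2:28894658-28894687, plus strand, motif at 4: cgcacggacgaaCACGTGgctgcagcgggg
NOP10 is the only member with a pair of matches, and in 7 members the match begins after the start. Members with the motif had a median difference of -0.074 (8 of 12 negative, from NOP10 at -0.46 to NOP2 at 0.11), and members without it one of -0.28 (14 of 16 negative). A match in these windows is a description of the sequence and not a measured site.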

How the data were processed

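RNA of 8 HEK293 samples, 4 per construct, was read on Agilent arrays. The submitters' processing notes name Agilent Feature Extraction 9.5. Per the design text, the authors removed features whose detection differed between samples of 1 construct, and divided the deposited linear intensity values by a trimmed mean. Whether background or dye was corrected is not stated there. The scale of the intensity is unknown, and values are given as log2.

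Of 45015 features, 25094 had a value in all 8 samples and 20901 of these had 1 gene. Detection limits were inferred from the deposited filter, as the rank at which samples of a construct differed least in the features above it. Differences were fitted with limma 3.58.1 in R 4.3.3 (construct and dye, mean-variance trend, Benjamini-Hochberg over all features, threshold adjusted p under 0.05). Unless another setting is named, p-values are from this fit, and the fit was checked on simulated data. Those of the construct by dye term are from a fit with that term added. Each gene is represented by its brightest feature, chosen by mean log2 over the 8 samples. SAM was rewritten for 3 against 3 samples with 20 permutations, false discovery rates of at most 5.4% and 10.3%, and a 1.4-fold filter.

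The members and lists were chosen with earlier results of these data known. Values by sample are given for the 8 members of smallest p and, in each role group, those of largest and smallest absolute difference. Of the other genes, up to 3 per group with the smallest p were named, with MYC and MDM2. The number of arrays limits the precision. Alternatives changed the normalization, filter, dye term, variance model and samples.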

Additional observations from a re-analysis of the deposited data

Results flagged for a closer look

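Among 68 groups of 4 samples tested (33 genes and their median in each construct), 5 held a sample whose gap to the nearest other exceeded 0.829 of the group's range, where chance gives about 3.4. POLR1D read 33.45 in sense 4, against 32.04 to 32.25 in the other sense samples. In antisense 2, DDX21 read 33.49 against 33.75 to 33.78 in the other antisense samples, NCL read 36.42 against 36.65 to 36.69, and PPAN read 31.39 against 30.66 to 30.78. NHP2 read 34.12 in antisense 4, against 34.00 to 34.02.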

How the results depend on the processing

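Under 19 alternatives per gene, 17 of the 33 members, all of negative difference, kept their sign in every one, and 61 of 627 values differed in sign from the reported value, none of them called. Member features called were 0 in the reported fit, 10 within Cy3 (6 lower), where 11.5% of all features were called, 2 in the 3 against 3 samples (4.25% of all) and 11 with array weights (18.2% of all). Within Cy5 the count was 0 (0.0159% of all). The other pathway genes called were 0 in the reported fit, 23 within Cy3, 12 in the 3 against 3 samples, 31 with array weights and 8 by SAM at 10.3%. NOP10 passed within Cy3, in the 3 against 3 samples and with array weights (adjusted p = 0.026, 0.041 and 0.012), against adjusted p up to 1.00 over its alternatives. By the brightest feature, NOC2L and NOP16 (lower in sense) and RRP12 (higher in sense) also passed within Cy3. The members' median was -0.055 in the Cy3 samples and -0.33 in the Cy5 samples, and leaving out 1 sample at a time gave -0.22 to -0.12, with 0 members and 0 other genes called. With array weights it was -0.092, and with the mean over all features of each gene -0.11. The construct by dye term called 0 members under each of its alternatives. A random block of samples with equal medians, chosen after seeing the data, left 0 members called (lowest adjusted p = 0.54). The replicate block gave 0 members called and a median of -0.20. Deviations of same-numbered samples correlated at -0.11 to 0.28, so the numbers were not taken as pairs. The causes of these changes were not tested. Signal was above the inferred limit for all members.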

Other observations

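Features of the same gene had differences of opposite sign for 6 of the 12 members that had several. The count rests on sign alone, and in UTP14A the differences were -0.0008 (SE 0.14) and 0.09 (SE 0.21). The share of such genes over the whole array was not computed. The feature of POLR1D that differed by 0.98 read 29.42, 28.47, 29.41 and 29.62 in sense and 27.86, 27.84, 28.74 and 28.56 in antisense. The third feature of NOC2L, which differed by 0.74 (SE 0.26, unadjusted p = 0.018), read 28.79, 27.87, 28.64 and 28.96 in sense and 27.80, 27.32, 28.06 and 28.16 in antisense. Both were highest in sense 4 and lowest in antisense 2, and both are annotated to a transcript record other than that of the gene's brightest feature. These features were singled out after their values were seen.

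Of the 33 members, 5 (15.2%) were highest in antisense 2, against 14.3% of all detected genes, so the count was near the background. They were POLR1B and the large subunit factors BOP1, PES1, PPAN and RRS1. In antisense 2 RRS1 read 32.77, against 31.63 to 32.21 in the other 7 samples, and PES1 read 31.17, against 30.33 to 30.99. The spread among sense samples was wider than among antisense samples for 26 of the 33 members, with median SDs of 0.28 and 0.17, and for 68.5% of all detected genes.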
